A study of Mus musculus with 24 samples.

Results

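The clustered histone genes are the subject here, taken as every gene of the deposited rhythm comparison whose mouse symbol begins with Hist1h, Hist2h, Hist3h or Hist4h. Of the 17721 genes in the authors' deposited table, 59 met this rule, out of 70 in the annotation used. They comprised 15 genes of the H2A type, 16 of the H2B type, 10 of the H3 type, 13 of the H4 type and 5 of the linker H1 type. The H2B count includes Hist3h2bb-ps, a pseudogene by its symbol. By location, 47 lay in the Hist1 cluster on chromosome 13, 8 in Hist2 on chromosome 3, 3 in Hist3 on chromosome 11 and 1 was Hist4h4 on chromosome 6. The study profiled polyadenylated RNA of back skin epidermis from 24 male C57BL/6 mice aged 8 weeks, 4 at each of 6 times set 4 h apart from zeitgeber time (ZT) 0, when lights came on, with a light and a dark phase of 12 h each. All 24 carried a knockout of Bmal1 (Arntl in the table), which encodes a transcription factor that drives the circadian clock, made by a Cre recombinase under the keratin 14 promoter, and are called EpiKO. Keratin 14 is made by basal keratinocytes, and per the design text the clock stayed active in other tissues. The comparison group was wild-type (WT) epidermis, with libraries that lie outside the samples given for this series.

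The authors' deposited table holds 1 fit per gene over all libraries and no value per library, so depth is unknown and no spread between animals can be given. Every statement below describes the authors' fitted values, without a test. Genotype and any difference in preparing or counting the EpiKO and WT libraries cannot be told apart. Levels are fitted means on a log2 scale and are not divided by transcript length. They are therefore compared between genotypes within a gene and not ranked between genes, apart from the rank correlations given below. In these bulk samples, fewer cells of a type and less RNA per cell cannot be told apart. Markers of keratinocytes were high in both groups of the authors' deposited table, with Krt5 at a mean of 17.7 in EpiKO and 17.8 in WT and Krt14 at 16.5 in both (log2). Markers of melanocytes, Langerhans cells, T lymphocytes and fibroblasts were also present in the authors' deposited table, with Cd207 at 7.28 in EpiKO and 5.80 in WT and Col1a1 at 7.99 in both (log2), and their part in the histone values was not tested. Arntl had a log2 level of 9.65 in EpiKO, against 9.50 in WT, in the authors' deposited table, a value that sums reads over the whole gene and does not check the deleted part.

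Core histones H2A, H2B, H3 and H4 form the protein spool of the nucleosome, and H1 binds the linker DNA between nucleosomes. Most of their genes sit in clusters, are transcribed in S phase when new DNA has to be packaged, and make mRNAs that end in a stem-loop bound by the stem-loop binding protein (SLBP) in place of a poly(A) tail. Libraries made from polyadenylated RNA therefore capture only part of these mRNAs. Some clustered histone genes also make polyadenylated transcripts, in human cells HIST1H2BC, HIST2H2BE and HIST1H1C among them.

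Members share much of their sequence, which bears on every value below. A read of 51 bases from the coding part of one gene often matches many others exactly. The stretches below are the 51-base windows held by most genes of a type, read from coding exons (GENCODE M21, mm10), with related genes that differ. Capitals mark bases that differ from the shared window of that type.
H2A shared window, Hist1h2ab, chr13:23751310-23751360, plus strand: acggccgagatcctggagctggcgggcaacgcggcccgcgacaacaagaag
Hist3h2a, chr11:58954915-58954965, plus strand: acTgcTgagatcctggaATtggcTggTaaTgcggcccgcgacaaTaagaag
H2B shared window, Hist1h2ba, chr13:23933830-23933880, minus strand: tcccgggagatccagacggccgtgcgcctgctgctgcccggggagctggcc
Hist2h2be, chr3:96221439-96221489, plus strand: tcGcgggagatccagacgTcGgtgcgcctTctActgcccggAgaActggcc
H3 shared window, Hist1h3a, chr13:23762150-23762200, minus strand: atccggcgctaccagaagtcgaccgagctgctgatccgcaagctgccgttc
H4 shared window, Hist1h4a, chr13:23760939-23760989, minus strand: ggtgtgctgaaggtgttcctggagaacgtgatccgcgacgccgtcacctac
Hist4h4, chr6:136804161-136804211, minus strand: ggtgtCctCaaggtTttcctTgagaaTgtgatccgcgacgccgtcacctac

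The H2A window was held by 13 of 15 H2A genes, the H2B window by 12 of 16, the H3 window by 10 of 10 and the H4 window by 11 of 13. The closest stretch of Hist3h2a had 8 mismatches to its window, that of Hist2h2be 7 and that of Hist4h4 5. Holding a shared window did not fix the overall share. Hist1h2bc and Hist1h2be hold the H2B window with 0 mismatches, yet shared 30.4% and 16.3% of all their 51-base windows with another gene, while Hist1h2br, also with a long annotated transcript (2197 bases), shared 88.7%. Over the 59 members the median share was 49.6%, from 0% for Hist2h2be, Hist1h1a and Hist1h1b to 100% for Hist2h2aa2, Hist2h2bb, Hist2h3b and Hist2h3c1.

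The 3′ stem-loop was searched for as GGCTCTNNNNAGAGCC or GGCCCTNNNNAGGGCC in the sense strand of annotated transcripts, and was found in 37 of the 59 members. Of 17720 genes with transcripts, 72 (0.406%) held either form. Short sites of 26 bases are shown because the position of this element, which SLBP binds, sets how much transcript lies beyond it. Capitals mark the 6-base stem arms.
Hist1h2ab, chr13:23751567-23751592, plus strand: acaaaGGCTCTtttcAGAGCCaccca
Hist1h2bk, chr13:22036295-22036320, plus strand: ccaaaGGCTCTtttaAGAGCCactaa
Hist1h3b, chr13:23752815-23752840, plus strand: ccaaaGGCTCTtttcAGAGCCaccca
Hist3h2a, chr11:58955167-58955192, plus strand: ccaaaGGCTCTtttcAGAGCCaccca
Hist1h1c, chr13:23739507-23739532, plus strand: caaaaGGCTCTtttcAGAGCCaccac
Hist1h4d, chr13:23581945-23581970, plus strand: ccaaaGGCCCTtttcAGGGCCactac
Hist4h4, chr6:136803993-136804018, minus strand: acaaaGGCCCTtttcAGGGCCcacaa

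The element began 21 to 58 bases after the stop codon, with a median of 32. Annotated transcripts ended 11 bases past it in Hist1h2ab, 30 in Hist1h2bk and 51 in Hist1h3b, but went on for 840 bases in Hist1h1c, 1643 in Hist3h2a and 2445 in Hist4h4. The second form was present in H4 genes, 7 of which carried the same 16 bases as Hist1h4d and Hist4h4. The exact form of Hist1h2ab was found in 20 members of the H1, H2A, H2B and H3 types. No match in the other members says only that these letters are not in their annotated transcripts.

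Most clustered histone genes had a lower fitted mean in EpiKO than in WT. The authors' mean model gave a weight of at least 0.5 to unequal means for 54 of the 59, of which 53 were lower in EpiKO (37.4% of all genes in the authors' deposited table were) and 1 was higher (32.7% of all genes). Equal means were assigned to 5 members, against 29.9% of all genes. The median difference, EpiKO minus WT, was -5.24 over the members and 0 over all genes (log2, authors' deposited table). Genes assigned equal means have a difference of exactly 0 in the fit. The median over all genes falls among them and is not a measured centre. A difference beyond 4 (log2) toward lower values in EpiKO was present in 36 members, against 6.02% of all genes, and beyond 4 toward higher values in 0 members, against 0.254% of all genes, in the authors' deposited table.

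The low EpiKO values sat at the bottom of the scale. A single lowest recurring EpiKO level, -2.41 (log2), was shared by 513 genes (2.89%) of the authors' deposited table, 10 of them members. An EpiKO level under 0 was given for 35 members (14.9% of all genes), and a WT level under 0 for 0 members (8.76% of all genes), in the authors' deposited table. Levels under 0 in EpiKO together with levels above 5 in WT occurred in 21 members, against 1.95% of all genes in the authors' deposited table. No fold is given for members at the recurring lowest level.

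**Figure D1:**
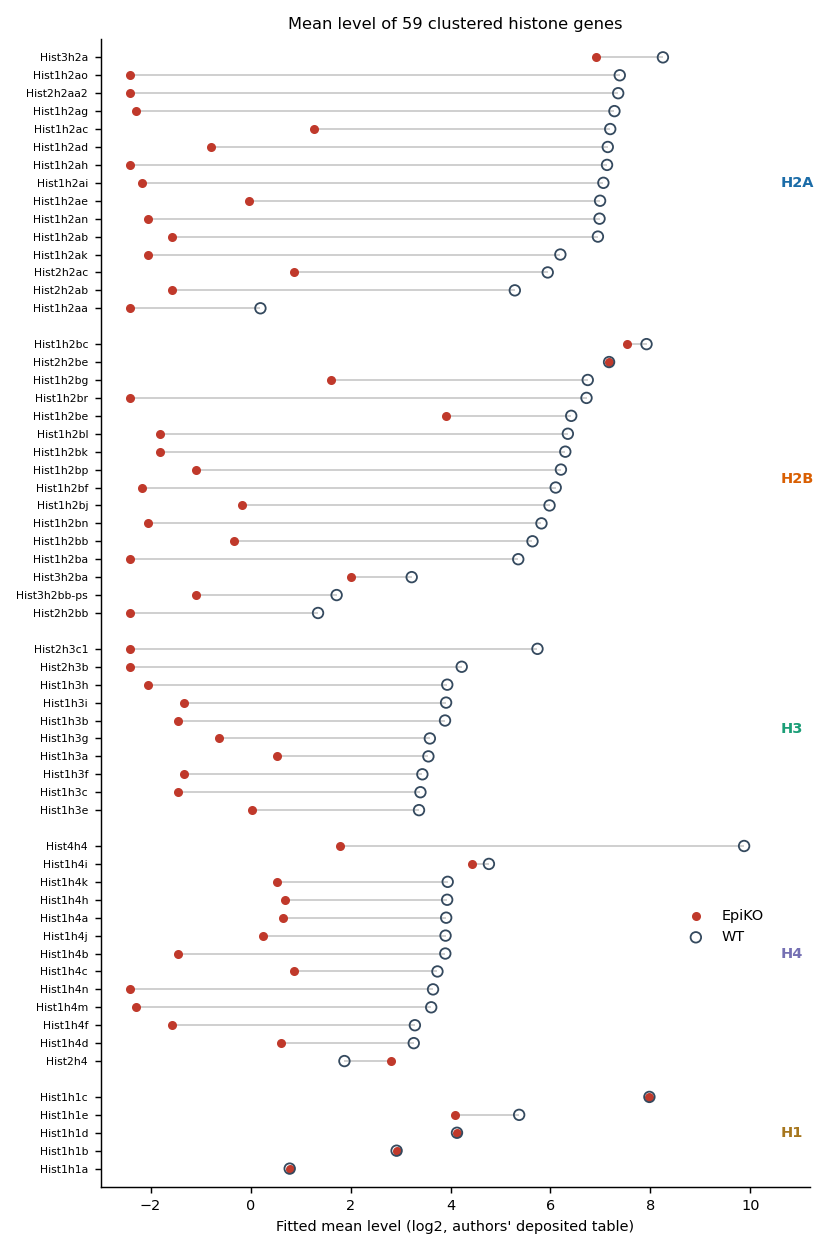
Fitted mean level (log2, horizontal axis) of each of the 59 clustered histone genes in EpiKO (filled red points) and WT (open circles), grouped by histone type and ordered by the WT level, with a grey line joining the 2 values of a gene. EpiKO points of the H2A, H2B and H3 types gather toward -2.41 while their WT points stay above 0, and 4 of the 5 H1 genes have both points in 1 place.

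H2A genes, which encode the partner of H2B in the nucleosome, had a median level of -2.05 in EpiKO, with a range of -2.41 to 6.92, and of 7.06 in WT, with a range of 0.20 to 8.25 (log2, authors' deposited table). All 15 were lower in EpiKO, 13 of them by more than 4 (log2). The members with the largest difference were Hist1h2ao (-2.41 in EpiKO, 7.39 in WT), Hist2h2aa2 (-2.41 in EpiKO, 7.36 in WT), Hist1h2ag (-2.29 in EpiKO, 7.28 in WT), Hist1h2ah (-2.41 in EpiKO, 7.13 in WT) and Hist1h2ai (-2.17 in EpiKO, 7.06 in WT), in log2 levels of the authors' deposited table. These 5 shared 78.9% to 100% of their windows with another gene. Hist3h2a, with 31.4% of windows shared, had a level of 6.92 in EpiKO and 8.25 in WT in the authors' deposited table. Hist1h2ac, which shared 13.9%, the least of the H2A genes, was at 1.28 in EpiKO and 7.20 in WT, a difference of -5.92 (log2, authors' deposited table). Hist1h2aa, known as a testis histone, was at -2.41 in EpiKO and 0.20 in WT in the authors' deposited table.

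For H2B genes the median level was -1.09 in EpiKO, against 6.16 in WT (log2, authors' deposited table), and 15 of 16 were lower in EpiKO. Hist2h2be was the single H2B gene with an equal mean, 7.17 in EpiKO and in WT, per the authors' deposited table. Hist1h2bc stood at 7.53 in EpiKO and 7.92 in WT, and Hist1h2be at 3.91 in EpiKO and 6.42 in WT, in the authors' deposited table. Of the 12 Hist1 genes of this type, 9 lay under 0 in EpiKO and none did in WT, and the SD over the 12 was 3.06 in EpiKO and 0.656 in WT (log2, authors' deposited table). Hist1h2bk, for example, was at -1.81 in EpiKO and 6.30 in WT in the authors' deposited table.

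H3 genes had levels of -2.41 to 0.52 in EpiKO and 3.37 to 5.74 in WT (log2, authors' deposited table). Of these, 10 of 10 were lower in EpiKO, against 37.4% of all genes. All 10 hold the same shared window, so they cannot be taken as separate measurements. Within the 8 Hist1 genes of the type, the SD of the levels was 0.862 in EpiKO and 0.241 in WT, where they lay between 3.37 and 3.93 (log2, authors' deposited table). Hist1h3a, for example, was at 0.52 in EpiKO and 3.56 in WT in the authors' deposited table.

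For H4 genes the median level was 0.60 in EpiKO, against 3.90 in WT (log2, authors' deposited table), and 12 of 13 were lower in EpiKO. Hist4h4, the lone gene of its locus, was at 1.80 in EpiKO and 9.87 in WT in the authors' deposited table, and 8.30% of its windows were shared. Hist1h4i was close in the 2 genotypes, at 4.43 in EpiKO and 4.77 in WT, in the authors' deposited table. The 1 member with a higher mean in EpiKO was Hist2h4, at 2.80 in EpiKO and 1.88 in WT in the authors' deposited table, and 0.949% of its windows were shared.

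H1 genes, whose sequences differ more from one another, were mostly equal between genotypes. Of the 5, 4 were assigned equal means in the authors' deposited table, namely Hist1h1c at 7.98, Hist1h1d at 4.13, Hist1h1b at 2.92 and Hist1h1a at 0.78 (log2). These 4 shared 0% to 8.41% of their windows with another gene. Hist1h1e, with 31.9% shared, was at 4.08 in EpiKO and 5.37 in WT in the authors' deposited table, and it overlaps Hist1h2be on the same strand.

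The size of the difference moved with shared sequence, among the members and across the whole table. In the authors' deposited table, a mean lower in EpiKO by more than 4 (log2) was given for 0 of 5 members with at most 5% of windows shared, 10 of 25 with over 5% to 50%, 19 of 21 with over 50% to 90% and 7 of 8 with over 90%. No H2A or H3 gene was among the 5. Among genes other than members the same shares were 3.44% of 12880, 6.26% of 4106, 36.2% of 464 and 76.8% of 211. Across the 59 genes, Spearman's rho between the shared percentage and the level was -0.79 for EpiKO and 0.17 for WT, and it was -0.73 for the difference, EpiKO minus WT. These genes share sequence and libraries and are not independent. For both library sets the counting of reads that fit several genes was not given in the sources used here, and the part of shared reads in the mean differences was not tested.

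**Figure D2:**
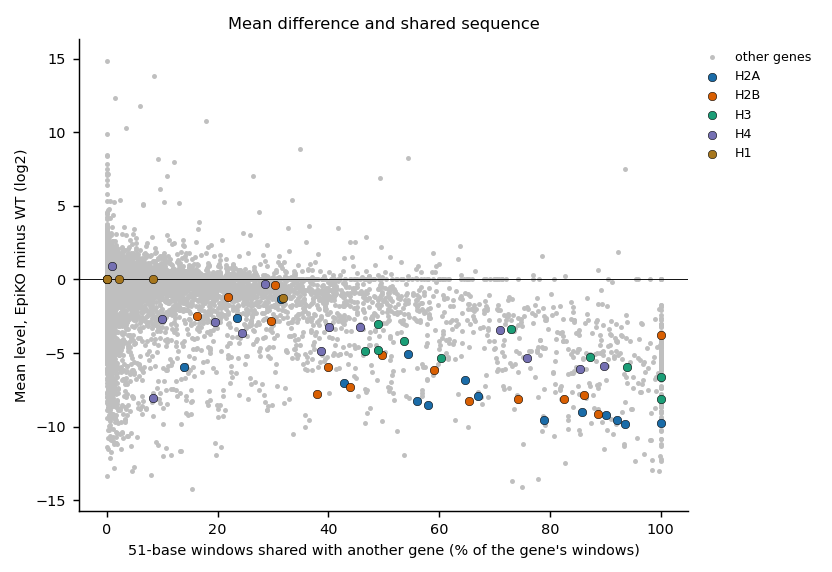
Difference in fitted mean level, EpiKO minus WT (log2, vertical axis), against the percentage of a gene's 51-base windows found in another gene (horizontal axis), for other genes (grey) and for members coloured by histone type. Members with over 50% of windows shared lie below 0, where the grey points also lie lower, while H1 genes with few shared windows lie at 0.

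Annotated genes on the other strand overlap 15 of 15 H2A genes, but only 1 of 16 H2B, 1 of 10 H3, 1 of 13 H4 and 0 of 5 H1 genes. None of these overlapping genes on the opposite strand is in the table. Some H2B and H3 genes without such an overlap had low EpiKO levels, among them Hist1h2bk with 74.2% and Hist1h3b with 60.4% of windows shared. Among other genes with at most 5% of windows shared, a mean lower in EpiKO by more than 4 (log2) was found for 3.30% of 3178 genes overlapped on the opposite strand only and 3.60% of 7142 with no overlapping gene (authors' deposited table). With over 5% shared, where all 15 H2A genes lie, the corresponding values were 6.21% of 2303 and 20.2% of 1040 (authors' deposited table). Whether reads were counted by strand was not given in the sources used here, and the part of these overlaps in the H2A values was not tested.

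Transcript length moved with the EpiKO levels as well. The 14 members whose longest annotated transcript reaches 1000 bases had a median level of 3.36 in EpiKO, against 6.57 in WT (log2, authors' deposited table), with 3 of them under 0 in EpiKO. For the 45 shorter members the medians were -1.45 in EpiKO and 4.22 in WT, with 32 under 0 in EpiKO (log2, authors' deposited table). Spearman's rho across the 59 genes between this length and the level was 0.63 for EpiKO and 0.16 for WT. Over the 37 genes with a stem-loop, rho between the bases annotated past it and the level was 0.72 for EpiKO and -0.01 for WT. Levels are not divided by transcript length, which can by itself tie a level to length. For the difference within a gene, EpiKO minus WT, rho was 0.45 with length over the 59 genes. With the bases past the stem-loop it was 0.60 over the 37 genes. Transcript length and shared windows were not separated.

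**Figure D3:**
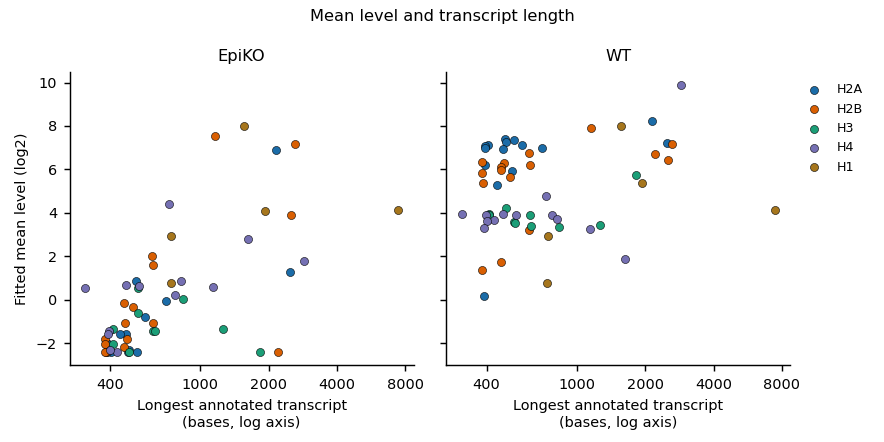
Fitted mean level (log2, vertical axis) against the longest annotated transcript of each of the 59 genes (bases, log axis), with EpiKO in the left panel and WT in the right panel and colours for histone types. In EpiKO 32 of the 45 genes under 1000 bases lie below 0, and in WT all 59 genes lie above 0.

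The study set out to compare daily rhythms between the genotypes. For each gene the authors' fit weighed 5 models, namely no rhythm, a rhythm in EpiKO only, in WT only, the same rhythm in both, and different rhythms. The weights sum to 1 and are not p-values, and a gene was assigned to a model with a weight of at least 0.5. No rhythm was assigned to 24 members (56.7% of all genes in the authors' deposited table), a rhythm in EpiKO only to 1 (4.31%), in WT only to 16 (8.41%), the same rhythm to 5 (16.7%) and different rhythms to 0 (2.65%), and 13 stayed unassigned (11.3%). Just inside the limit was Hist1h3g with a weight of 0.520 on the same rhythm, and just outside was Hist1h2bn with 0.484 on WT only, in the authors' deposited table.

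The classes were spread unevenly over the histone types. WT only or the same rhythm was assigned to 10 of 15 H2A and 7 of 10 H3 genes. Of the 16 H2B genes 2 were assigned WT only, 2 the same rhythm, 4 no rhythm and 8 stayed unassigned. Of the 13 H4 genes 12 were assigned no rhythm, as were 5 of 5 H1 genes, in the authors' deposited table. Summed over the models with a rhythm in WT, the weight reached 0.5 for 32 members (34.5% of all genes), and summed over those with a rhythm in EpiKO for 6 members (29.2% of all genes), in the authors' deposited table.

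**Figure D4:**
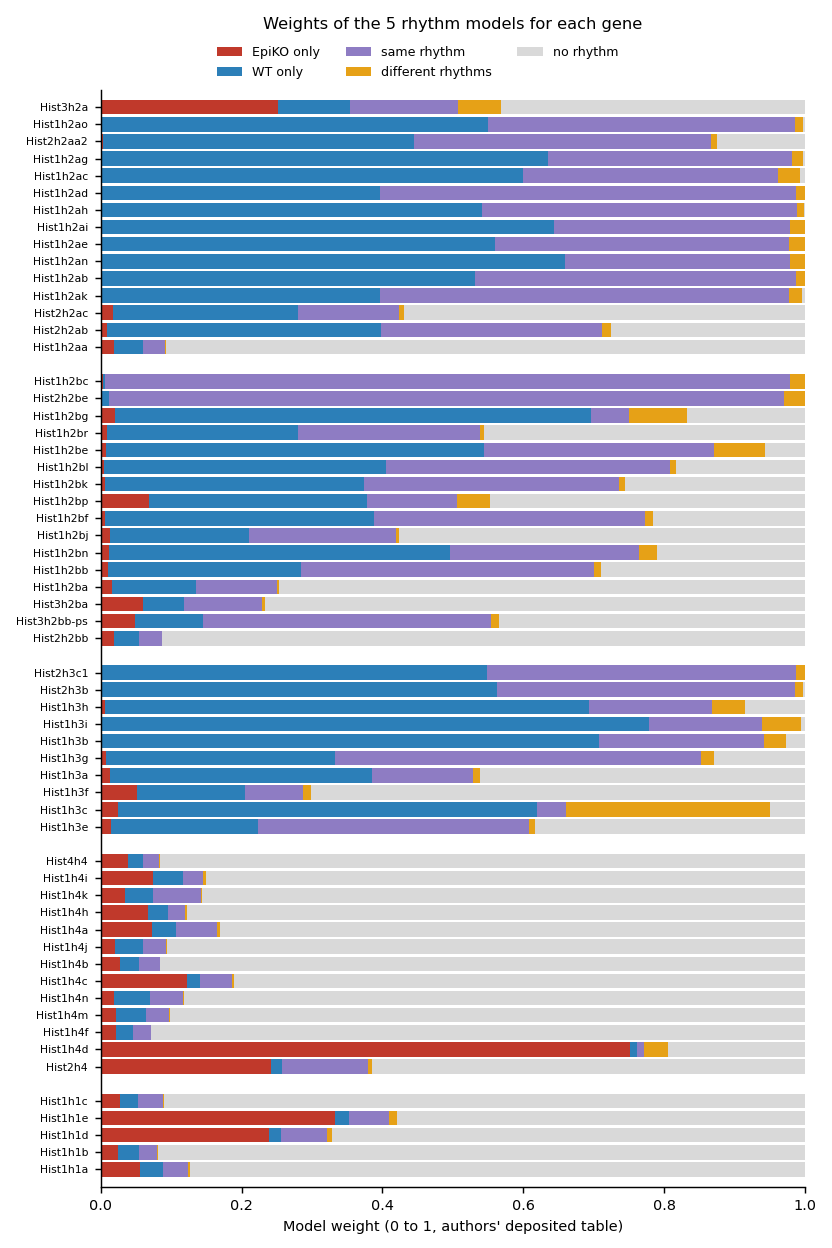
Weight of each of the 5 rhythm models (0 to 1, horizontal axis) for the 59 clustered histone genes, grouped by type in the same order as the plot of levels. Blue (WT only) and violet (same rhythm) fill the bars of 10 Hist1 H2A genes almost wholly, grey (no rhythm) fills most of the H4 and H1 bars, and red (EpiKO only) passes 0.5 for Hist1h4d alone.

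The Hist1 H2A genes lay close together in WT. For 10 of the 11, the weight of a rhythm in WT was at least 0.993, with fitted WT peaks between ZT20.6 and ZT20.9 and amplitudes of 1.97-fold to 2.38-fold, peak over trough, in the authors' deposited table. Their levels ran over -2.41 to 1.28 in EpiKO and 6.20 to 7.39 in WT (log2, authors' deposited table). The largest amplitude was that of Hist1h2ao, 2.38-fold with a WT peak at ZT20.8, and the smallest that of Hist1h2ab, 1.97-fold at ZT20.7, in the authors' deposited table. Since 13 of 15 H2A genes hold the same window, these cannot be taken as separate measurements of 10 genes. Hist1h2aa, the gene left out, had a weight of 0.907 on no rhythm, per the authors' deposited table.

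Whether these genes were rhythmic in EpiKO was not resolved by the fit. Hist1h2ab had weights of 0.531 for WT only and 0.456 for the same rhythm, and Hist1h2ad 0.396 and 0.591, in the authors' deposited table. The weights of these 2 models summed to at least 0.9 in 16 members, against 11.9% of all genes in the authors' deposited table. Of those 16 members, 13 had an EpiKO level under 0. At such levels a shared curve in the deposited fit is not a separately measured EpiKO rhythm. Hist1h2ac, with an EpiKO level of 1.28, had 0.60 on WT only and 0.361 on the same rhythm in the authors' deposited table.

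Fitted WT amplitudes of the 7 assigned H3 genes were 2.30-fold to 2.72-fold. Hist1h3c reached 2.72-fold in WT with a peak at ZT20.1, Hist1h3i 2.70-fold at ZT21.1 and Hist2h3b 2.59-fold at ZT20.6, in the authors' deposited table. Hist1h3b (2.53-fold), Hist1h3h (2.34-fold), Hist2h3c1 (2.30-fold) and Hist1h3g (2.30-fold) peaked in WT between ZT20.3 and ZT20.9 in the authors' deposited table. Hist1h3c also had the largest weight on different rhythms among these, 0.289 in the authors' deposited table. EpiKO levels of these 7 genes were under 0, so no EpiKO amplitude is read from them.

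Of the 12 Hist1 H2B genes, 8 had a fitted WT curve, with amplitudes of 1.49-fold to 1.6-fold per the authors' deposited table. Hist1h2ba and Hist1h2bj were assigned no rhythm, and the unassigned Hist1h2bp and Hist1h2br had their largest weight on no rhythm, in the authors' deposited table. Hist1h2bg cycled 1.57-fold with a WT peak at ZT19.8 and a weight of 0.676 on WT only, and Hist1h2be 1.54-fold at ZT20.2 with 0.536 on the same model, in the authors' deposited table. For the unassigned Hist1h2bb, Hist1h2bf, Hist1h2bk, Hist1h2bl and Hist1h2bn the fitted WT peaks lay between ZT19.0 and ZT20.5 with amplitudes of 1.49-fold to 1.6-fold as given in the authors' deposited table. Of these, Hist1h2bf split its weight almost evenly, with 0.381 on WT only and 0.385 on the same rhythm in the authors' deposited table.

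Hist1h2bc and Hist2h2be were the 2 members with a weight above 0.9 on the same rhythm, and both had high levels in each genotype. The same rhythm had a weight of 0.973 for Hist1h2bc, 1.51-fold with a peak at ZT19.3, in the authors' deposited table. Hist2h2be had a weight of 0.960 on the same rhythm, 1.59-fold with a peak at ZT23.4, in the authors' deposited table. With Hist2h2be 0% of windows were shared, and with Hist1h2bc 30.4%. No other clustered histone gene had a weight of 0.8 or more on any model with a rhythm.

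Hist1h4d was the single member assigned a rhythm in EpiKO only, a class that held 4.31% of all genes. Its weight was 0.752, with 0.194 on no rhythm, and its EpiKO curve peaked at ZT18.5 with a 5.28-fold amplitude around a level of 0.60 (3.26 in WT) in the authors' deposited table. That span of 2.40 (log2) takes the fitted trough under 0, among the low EpiKO levels, so this amplitude is uncertain. With a weight limit of 0.8 the gene was not assigned. The other 12 H4 genes had a weight of at least 0.615 on no rhythm in the authors' deposited table. Among them Hist4h4 had 0.916, with its level of 1.80 in EpiKO and 9.87 in WT, in the authors' deposited table. The linker gene Hist1h1c had 0.910 on no rhythm in the authors' deposited table.

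Over the 21 members assigned a rhythm in WT, whether alone or shared, peaks lay between ZT19.3 and ZT23.4 with a circular mean of ZT20.7, late in the dark phase. A WT peak between ZT20 and ZT22 was given for 18 of the 21, against 8.53% of the 4914 genes assigned a rhythm in WT in the authors' deposited table. Their median WT amplitude was 2.2-fold, and that of all such genes 1.29-fold, in the authors' deposited table. EpiKO levels were under 0 for 16 of the 21. Many of the 21 share windows, so they are not separate measurements and their shared peak times count the same reads repeatedly. The range of ZT20 to ZT22 was not planned.

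**Figure D5:**
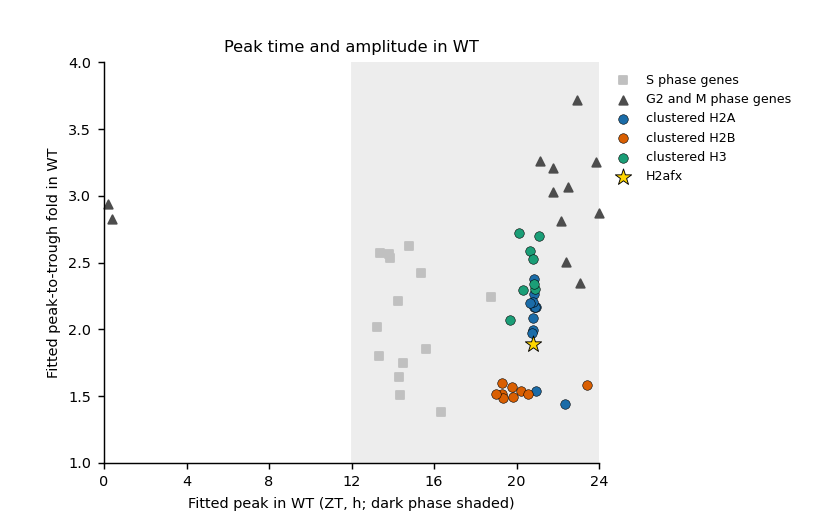
Fitted peak-to-trough fold in WT (vertical axis) against the fitted WT peak time (ZT in h, horizontal axis, dark phase shaded) for members with a WT curve coloured by type, for H2afx (star) and for lists of S phase and of G2 and M phase genes. Most clustered H2A and H3 points lie between ZT20 and ZT22, later than the S phase genes and earlier than most G2 and M phase genes, and H2B points lie lower, near 1.5-fold.

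Other genes of histone supply and cell division place these times in the day. The 15 S phase genes had a mean WT peak at ZT14.7 over the 14 assigned a rhythm in WT, 10 in WT only and 4 with different rhythms, and a median WT amplitude of 2.11-fold, in the authors' deposited table. The 12 G2 and M phase genes all had different rhythms, with mean peaks at ZT5.92 in EpiKO and ZT22.8 in WT in the authors' deposited table. The circular mean WT peak of the 21 assigned members, ZT20.7, lay between these 2 means, while Hist2h2be peaked at ZT23.4, after the mean of the G2 and M phase genes, in the authors' deposited table. None of the 15 S phase or 12 G2 and M phase genes had a mean lower in EpiKO by more than 4, against 6.02% of all genes (log2, authors' deposited table). With so few genes listed, none is near that share.

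The 11 replication-independent histone genes, whose mRNAs mostly carry poly(A) tails, had mean differences in both directions. Of these, 6 had a lower mean in EpiKO (37.4% of all genes) and 3 a higher mean (32.7% of all genes). Their differences were -2.31 to 1.73 (log2, authors' deposited table). So few genes allow no reading of these counts against the shares. H2afx, which encodes the H2A variant phosphorylated at DNA breaks, had a WT peak inside the range of the Hist1 H2A genes. It cycled 1.54-fold in EpiKO with a peak at ZT4.59 and 1.89-fold in WT with a peak at ZT20.8, at levels of 8.33 in EpiKO and 8.99 in WT, in the authors' deposited table. The weight on different rhythms was 0.999, per the authors' deposited table, and 9.52% of its windows were shared. Cenpa, the centromeric H3 variant, cycled 2.01-fold in EpiKO (ZT7.14) and 2.92-fold in WT (ZT0.738) in the authors' deposited table. H2afz, a variant found near promoters, and H3f3a, which encodes the replacement histone H3.3, were assigned a rhythm in EpiKO only, 1.32-fold for each with peaks at ZT4.23 and ZT4.96, in the authors' deposited table. Of their windows, 35.1% (H2afz) and 26.9% (H3f3a) were shared with another gene. H3f3a had the lowest difference of the list, -2.31.

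Among factors that make histone mRNA, Slbp, Npat and Casp8ap2 were assigned equal means in the genotypes. Slbp, which binds the stem-loop shown above, had a level of 9.32 in both and cycled 1.37-fold in EpiKO (ZT1.95) and 1.54-fold in WT (ZT14.0) in the authors' deposited table. Npat, a coactivator of histone gene transcription, had a level of 9.14 in both and a weight of 0.828 on no rhythm in the authors' deposited table. Casp8ap2, also called FLASH, which takes part in cutting histone pre-mRNA, stayed unassigned at a level of 9.35 in both in the authors' deposited table. Of the 14 measured genes of this list, 3 had a lower mean in EpiKO (37.4% of all genes) and 8 a higher mean (32.7% of all genes). Their differences were -0.59 to 1.08 (log2, authors' deposited table). Zfp473, a zinc finger protein of the processing complex, had the largest amplitudes of the list, 2.04-fold in EpiKO (ZT4.82) and 1.96-fold in WT (ZT22.9), in the authors' deposited table.

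Histone chaperones, which carry new histones to DNA, had means lower in EpiKO in 7 and higher in 6 of 14 genes of the authors' deposited table. Over all genes the shares were 37.4% lower and 32.7% higher. With so few genes listed, no result about the chaperones is read from these counts. Asf1b, an H3-H4 chaperone of dividing cells, cycled 1.85-fold in EpiKO (ZT3.11) and 2.46-fold in WT (ZT18.9) in the authors' deposited table. Chaf1b and Chaf1a, subunits of the replication-coupled assembly factor, were assigned a rhythm in WT only, 2.27-fold at ZT14.0 and 1.73-fold at ZT14.4, in the authors' deposited table. Chaf1b shared 0.603% and Chaf1a 49.6% of windows with another gene. Hat1, which acetylates new histone H4, was also in that class, 1.56-fold at ZT14.1, in the authors' deposited table.

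Many H2A and H2B genes stand head to head and share 1 promoter region. In 11 such pairs the gap between the genes was 172 to 305 bases. The EpiKO level was under 0 for the H2A gene in 8 pairs and for the H2B gene in 8 pairs. The latter include Hist3h2bb-ps, a pseudogene by its symbol, at -1.09 beside Hist3h2a. Of the 250 bases in the gap between Hist1h2ac and Hist1h2bc, 239 are shown. This pair was taken because its genes had unlike differences, EpiKO minus WT, of -5.92 for Hist1h2ac and -0.39 for Hist1h2bc (log2, authors' deposited table). The stretch reads toward Hist1h2ac and comes from RefSeq (GRCm38.p6). Capitals mark the CCAAT box, the TATA box (TATAAA) and the octamer ATTTGCAT on either strand.
Hist1h2ac promoter, chr13:23683960-23684198, minus strand: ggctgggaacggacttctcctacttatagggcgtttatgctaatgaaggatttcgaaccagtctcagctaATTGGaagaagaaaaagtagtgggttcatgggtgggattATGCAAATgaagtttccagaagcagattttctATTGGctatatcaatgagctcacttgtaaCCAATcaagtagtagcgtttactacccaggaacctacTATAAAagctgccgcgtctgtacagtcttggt

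The 239 bases hold the CCAAT box 3 times, the TATA box 1 time and the octamer 1 time. RefSeq promoters, 250 bases before to 50 after the start, were matched for 53 members with 54 entries. CCAAT was present on either strand in 83.3% of the 54 and 37.4% of all 32851 promoters, the TATA box in 61.1% and 13.6%, and the octamer in 24.1% and 1.74%. The octamer was found in 7 of 15 H2A and 6 of 14 H2B promoters and in 0 of the H3, H4 and H1 promoters, and CCAAT in 3 of 12 H4 promoters and in all entries of the other 4 types. Windows of head-to-head genes overlap, so 1 motif can count for both. A match of letters is not a measured binding site.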

How the data were processed

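Polyadenylated RNA of 24 EpiKO epidermis samples was sequenced as single reads of 51 bases with a stranded kit, per the labels' protocols. Tools listed in the submitters' processing notes are HISAT2 2.2.1, Trimmomatic 0.36, featureCounts 1.6.0, SAMtools 1.3.1 and edgeR, on build mm10, with no order or settings. Rhythms were compared with WT by dryR, per the series design text. The authors deposited 1 table with model weights (a score from 0 to 1), fitted mean levels and amplitudes in log2, and peak times in hours. The column set without the WT label was read as EpiKO. Fold amplitudes are 2 to the power of the deposited amplitude, which spans trough to peak. With no values per library, depth and its precision are unknown, spread between replicates cannot be given, and planned tests across libraries were not run.

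Each gene took the model of largest weight if that weight was at least 0.5. The members and gene lists were chosen with earlier results of these data known. Named genes are members whose largest weight is on a model with a rhythm, the 5 with the highest mean, the 5 with the largest mean difference each way, those at the weight limit, and of each other list up to 4 by amplitude with Slbp, Npat and Casp8ap2. Not every gene the rule takes is named, and others (such as Hist1h1e, Hist1h2aa, Hist1h2ba, Hist1h2bj, Hist1h2bp, Hist1h2br, Hist1h4i and Hist1h3a) were named after their values were seen. Identifiers were matched to symbols for 17720 of 17721. Shared windows are the 51-base windows of a gene's GENCODE M21 transcripts that also occur in another gene's transcripts, in either orientation. The window count was tested on simulated sequences. The class assignment was run only on simulated weights whose largest model was set beforehand, so that check cannot speak to the calls. Alternatives were weight limits of 0.4, 0.8 and none, summed weights, a minimum amplitude of 0.25 and a minimum difference of 0.5 (log2), leaving out low levels, centring, and leaving out genes with over 5% of windows shared. Added after seeing the data were limits of 50% on windows and 0 (log2) on the EpiKO level, and leaving out overlapped genes. Python 3.11.15, NumPy 2.4.6, pandas 2.3.3 and Matplotlib 3.10.9 were used.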

Additional observations from a re-analysis of the deposited data

How the results depend on the processing

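No paired analysis was possible because the deposited table holds no values per library, and for the same reason no replicate could be left out. Of 69 values recomputed under the alternatives, 38 stayed within 1.5 times or 1 SD and 31 moved. With no minimum weight, 9 members had the same rhythm and 0 stayed unassigned, and with a minimum of 0.4, 4 stayed unassigned. A minimum of 0.8 left 0 members in EpiKO only, 0 in WT only, 2 with the same rhythm, 41 unassigned, and a median WT amplitude of 1.55-fold over those 2. Summed weights were 2.92 for EpiKO only, 14.1 for the same rhythm and 1.19 for different rhythms. Subsets hold fewer members, which lowers the counts. The 15 members at or above the 0.25 quantile of mean level gave 7 with no rhythm, 0 EpiKO only, 4 WT only, 3 same and 1 unassigned. With at most 5% of windows shared (5 members), the counts were 4 no rhythm, 0 EpiKO only, 0 WT only, 1 same and 0 unassigned. Of these 5, 0 had a lower mean in EpiKO. They were Hist1h1a, Hist1h1b, Hist1h1d, Hist2h2be and Hist2h4. The lowest share was 13.9% among H2A and 46.6% among H3 genes, so this limit left out both types. Histone type and shared windows are therefore not separated by it. Among alternatives added after seeing the data, at most 50% of windows shared (30 members) gave 5 WT only, 2 same and 5 unassigned, with 24 lower in EpiKO. Members with an EpiKO level of at least 0 (24) gave 15 no rhythm, 3 WT only, 2 same and 3 unassigned. Of the 38 members with no overlapping gene, 32 were lower in EpiKO. Centring on the median of all genes changed nothing, since that median was 0, a value set by the genes assigned equal means. That check therefore cannot speak to the calls. The cause of the other shifts was not tested.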
